A study of Drosophila melanogaster with 22 samples.

Results

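The Arp2/3 complex, the nucleator of branched actin filaments, was followed at the level of its subunit genes in the blood cells and blood-forming organs of Drosophila melanogaster larvae. Its members were chosen by name: the 8 subunit genes Arp2, Arp3, Arpc1, Arpc2, Arpc3A, Arpc3B, Arpc4 and Arpc5, matched to their FlyBase identifiers. All 8 were found among the 18068 genes of the tables, and all 8 passed the filter on low counts. Larvae were of the wild-type strain Oregon R (OreR) in all groups. They were either normal or infested by a wasp, a parasitoid that lays its egg in the larva. Hemocytes in circulation ("blood" in what follows) and lymph glands, organs of the larva that produce hemocytes, were taken at 96 h or 120 h after egg laying, and infested larvae were then 24 h or 48 h past infestation. Material of many larvae was pooled, so a value describes a mixed cell population and no single animal. Nanopore cDNA libraries with the kit SQK-PCB109 gave 3 normal and 3 infested lymph gland samples at 96 h, 2 normal and 3 infested blood samples at 96 h, and 2 normal and 3 infested blood samples at 120 h. A normal lymph gland sample at 120 h was made with another kit (SQK-PCS109), and 5 Illumina libraries covered 1 condition each.

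In the complex, Arp2 and Arp3 resemble actin and together form the start of a new filament. Arpc2 and Arpc4 are the scaffold that holds them and grips the side of an existing filament, Arpc1 is a propeller-shaped subunit to which activators bind, and Arpc3 and Arpc5 complete the assembly. These roles were worked out mainly with yeast, protozoan and mammalian proteins. In flies Arpc3 is encoded by a pair of genes, Arpc3A and Arpc3B. The complex is nearly silent until an activator of the WASP family, such as WAVE (SCAR in flies), WASp or WASH, switches it on. Branched networks built in this way drive lamellipodia, phagocytosis and cell spreading. Hemocytes use them to migrate and engulf, and lamellocytes, the large flat hemocytes that wrap wasp eggs, spread extensively.

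Gene counts per library lay between 356632 in infested lymph gland replicate 2 and 2079764 in 120 h normal blood replicate 2. Each member was read by between 30 and 932 reads in the 16 SQK-PCB109 libraries, and a count of 0 would have allowed up to 1.44 to 8.41 CPM (reads scaled to a library total of 1000000), for counting error only. Blood replicates 2 and 3 stood apart from replicate 1. Within a blood condition they differed from each other with a chi-square per degree of freedom of 3.18 to 3.72 over genes, against 13.2 to 26.6 for either of them with replicate 1, and 7.89 to 25.2 between lymph gland replicates. Replicate 1 was present in infested blood only, and both normal blood groups held replicates 2 and 3 alone. The SD of a normal blood group therefore leaves out the spread that replicate 1 adds. In blood, what sets replicate 1 apart cannot be fully told apart from infestation. Nothing in the labels says whether replicates were separate cultures, pools or preparations, so p-values measure the spread between these samples, which may in part be technical. All 8 plasmatocyte markers were detected in every nanopore library, in blood and lymph gland alike. Prohemocyte markers summed to 2746 to 3135 CPM in normal and 953 to 1324 CPM in infested 96 h lymph glands, and to 199 to 332 CPM in blood. With infestation the summed lamellocyte markers went from 181 to 245 up to 1657 to 2302 CPM in lymph glands, from 259 to 299 up to 4101 to 4316 CPM in blood at 96 h, and from 392 to 412 up to 10674 to 14416 CPM in blood at 120 h, with no overlap in any of these pairs. In bulk samples, fewer cells of a type and less RNA per cell cannot be told apart.

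Over all 8 genes together, the sum of TMM-scaled CPM was higher after infestation in each tissue and at each age. The sums were 1154, 1102 and 1062 CPM in the 3 normal lymph gland libraries and 1627, 1500 and 1427 CPM in the 3 infested ones. In 96 h blood they were 1424 and 1336 CPM in normal larvae against 1987, 1997 and 1969 CPM after infestation. In 120 h blood they were 1699 and 1665 CPM in normal larvae against 2822, 2987 and 2733 CPM. From the lowest to the highest level the order was normal lymph gland, 96 h normal blood, infested lymph gland, 120 h normal blood, 96 h infested blood and 120 h infested blood. The ranges of neighbours in that order did not overlap, although the highest 96 h normal blood library (1424 CPM) and the lowest infested lymph gland library (1427 CPM) nearly touched. No p was computed for this sum, since the members were chosen with results of these data known.

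**Figure D1:**
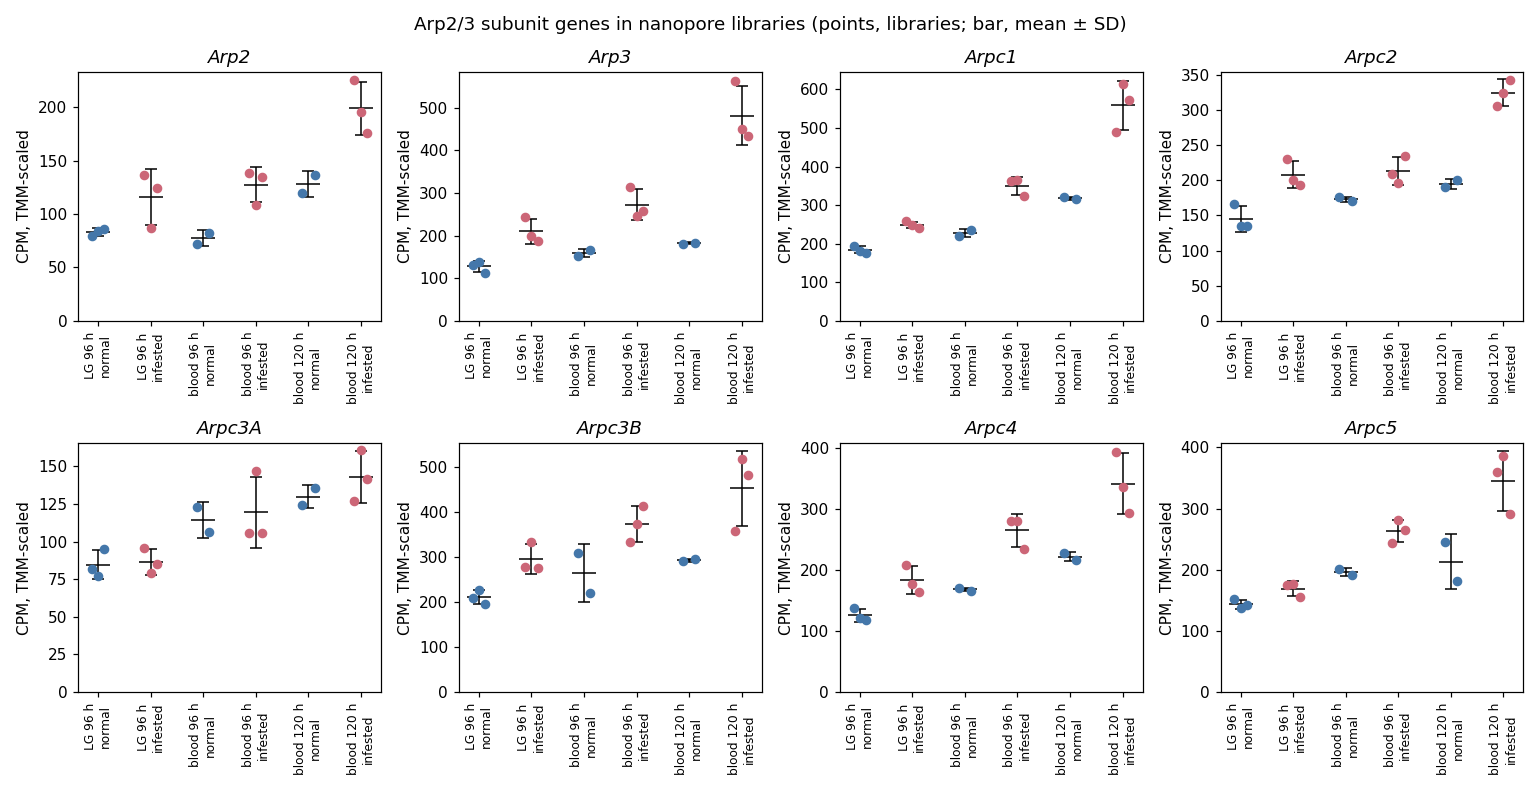
Each panel shows one subunit gene, with TMM-scaled CPM on the vertical axis from 0 and the 6 nanopore groups on the horizontal axis (LG, lymph gland). Points are libraries, blue for normal and red for infested, and the bar is the mean ± SD of 2 or 3 libraries. Arp3 reaches 433 to 561 CPM in 120 h infested blood against 180 to 183 CPM in normal blood of that age, while Arpc3A overlaps between normal and infested in all 3 comparisons.

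What infestation did to each subunit was tested in 1 edgeR fit of the 16 libraries. In blood at 120 h, 48 h after infestation, 7 of the 8 genes rose and none fell, where 11.4% of the 7076 genes tested rose, 8.06% fell and 19.4% changed either way. In blood at 96 h, 24 h after infestation, 3 of 8 rose (Arp3, Arpc1 and Arpc4) and none fell, where 3.31% of all genes tested rose, 1.67% fell and 4.97% changed. In the lymph gland at 96 h, 3 of 8 rose (Arp3, Arpc2 and Arpc4) and none fell, where 3.29% of all genes rose, 1.84% fell and 5.13% changed. The median log2 fold change of the 8 was 0.66 in 120 h blood, 0.56 in 96 h blood and 0.49 in the lymph gland, against medians of -0.03, 0.00 and -0.00 over all genes tested. In each of the 3 comparisons the infested and normal libraries did not overlap for 7 of the 8 genes, the exception being Arpc3A. Over all genes tested, groups did not overlap for 21.6% in the lymph gland, 38.6% in 96 h blood and 49.8% in 120 h blood, and every infested library was above every normal one for 10.8%, 18.8% and 24.4%. Where blood replicates 2 and 3 of each condition were summed into 1 sample, 1 of 8 was called in 120 h blood (Arp3), 0 in 96 h blood and 0 in the lymph gland. Leaving out any 1 library gave 3 to 7 members called in 120 h blood, 0 to 4 in 96 h blood and 0 to 4 in the lymph gland.

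Cell type markers moved in the same comparisons, and their part in these results was not tested. Beside the lamellocyte sums given above, plasmatocyte markers summed to 6919 to 7192 CPM in normal and 3781 to 5303 CPM in infested blood at 96 h, to 5674 to 5711 against 2471 to 2841 CPM at 120 h, and to 2118 to 2415 against 863 to 1201 CPM in the lymph gland. Crystal cell markers summed to 11668 to 11783 against 1746 to 4297 CPM in 96 h blood, to 5276 to 5496 against 712 to 1697 CPM in 120 h blood, and to 2627 to 4976 against 211 to 381 CPM in the lymph gland. Markers of the midgut, a tissue outside the blood system, summed to 295 to 300.5 CPM in normal and 2668 to 3705 CPM in infested 96 h blood. In the lymph gland the midgut sum was 0 to 6.41 CPM in normal and 135 to 2249 CPM in infested samples, with the low value in infested replicate 3. In 120 h blood the midgut sum went from 557 to 609.7 CPM in normal to 25.3 to 53.4 CPM in infested samples. Muscle markers summed to 3103 to 3655 against 953 to 2514 CPM in 96 h blood and to 1071 to 1180 against 504 to 616 CPM in the lymph gland, and in 120 h blood the infested range, 488 to 1132 CPM, enclosed the normal one. Fat body markers overlapped in 120 h blood (3457 to 4085 against 588 to 3464 CPM) and in the lymph gland (1028 to 1139 against 1110 to 1323 CPM) but not in 96 h blood (451 to 1298 against 1444 to 2059 CPM). Male germline markers went from 24.0 to 30.4 CPM in normal to 85.9 to 131 CPM in infested 120 h blood with no overlap, and both of the list's tested genes, of 9, rose there (edgeR adjusted p = 0.0229 and 0.031).

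Arp3 (FBgn0262716), the larger of the pair of actin-like subunits, had the largest change of the 8 in all 3 infestation comparisons. The gene lies on chromosome arm 3L at 8113407 to 8115902, minus strand, in the Ensembl annotation of BDGP6.54. It measured 180 and 183 CPM in normal 120 h blood and 561, 450.2 and 433 CPM in infested 120 h blood. Every infested library was thus above every normal one, and the mean went from 182 ± 2.34 to 481 ± 69.8 CPM (SD, n = 2 and 3). The log2 fold change was 1.41 ± 0.18 (SE), a 2.65-fold difference (edgeR adjusted p = 4.25e-05). With blood replicates 2 and 3 summed it was 1.47. In 96 h blood Arp3 measured 152 and 165 CPM in normal and 314, 247 and 257 CPM in infested samples. The log2 fold change there was 0.78 ± 0.18 (edgeR adjusted p = 0.0207). In the lymph gland it measured 132, 138 and 113 CPM in normal and 243, 199.9 and 187 CPM in infested samples. Here the log2 fold change was 0.73 ± 0.16 (edgeR adjusted p = 0.0115). The order of groups for Arp3 differed from that of the sum of all 8 in one pair of neighbours: infested lymph glands (187 to 243 CPM) stood above 120 h normal blood (180 to 183 CPM). Neighbouring groups did not overlap.

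Arp2 (FBgn0011742), the other actin-like subunit, lies on chromosome X at 16548290 to 16553968, minus strand. It rose in 120 h blood, from 120 and 137 CPM to 225, 195 and 176 CPM. That was a log2 fold change of 0.64 ± 0.19 (edgeR adjusted p = 0.0252). In 96 h blood its log2 fold change was 0.70 ± 0.20, of similar size, but it missed the threshold (edgeR adjusted p = 0.0591). Its libraries there, 72.2 and 82.5 CPM normal against 138, 108 and 135 CPM infested, did not overlap. In the lymph gland the lowest infested library (86.8 CPM) lay just above the highest normal one (86.1 CPM), and the log2 fold change was 0.51 ± 0.17 (edgeR adjusted p = 0.106). That lowest value came from the shallowest library, infested replicate 2, where Arp2 had 33 reads.

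The scaffold subunits were both called in the lymph gland and in 120 h blood. Arpc4 (FBgn0284255; 2L, 6125132 to 6125911, plus strand) was called in 96 h blood too. It measured 138, 122 and 117 CPM in normal and 209, 176 and 165 CPM in infested lymph glands, a log2 fold change of 0.55 ± 0.15 (edgeR adjusted p = 0.044). In 96 h blood it measured 169.8 and 166 CPM against 281, 281 and 234 CPM, a log2 fold change of 0.66 ± 0.17 (edgeR adjusted p = 0.034). In 120 h blood it went from 227 and 216 CPM to 394, 337 and 294 CPM, a log2 fold change of 0.62 ± 0.16 (edgeR adjusted p = 0.0142). Its change was thus of like size at both ages. Arpc4 overlaps the gene WDR79 on the other strand, and whether the authors' nanopore counting used strand is not given in the sources used here, so reads of both genes may have been mixed. Arpc2 (FBgn0032859; 2L, 20417057 to 20423027, plus strand, with 17 small nucleolar RNA genes inside it) rose in the lymph gland by 0.52 ± 0.13 in log2 terms (edgeR adjusted p = 0.033), from 167, 134 and 135 CPM to 231, 199.9 and 194 CPM. In 96 h blood it stood at 176 and 170.3 CPM against 209, 195 and 235 CPM, with a log2 fold change of 0.30 ± 0.15 that did not pass (edgeR adjusted p = 0.331). In 120 h blood it rose from 189.9 and 199.8 CPM to 306, 325 and 343 CPM, by 0.74 ± 0.15 in log2 terms (edgeR adjusted p = 0.00258).

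Arpc1 (FBgn0001961; 2L, 13827941 to 13829741, minus strand), the propeller subunit, rose in blood at both ages. In normal 120 h blood it measured 321 and 316 CPM, and in infested 120 h blood 490.2, 615 and 573 CPM. The log2 fold change was 0.81 ± 0.14 (edgeR adjusted p = 0.000629). At 96 h in blood, it rose from 220.5 and 234 CPM to 363, 365 and 324 CPM, by 0.62 ± 0.14 in log2 terms (edgeR adjusted p = 0.018). In the lymph gland it stood at 194, 182 and 176 CPM in normal and 258, 247 and 240.3 CPM in infested samples, and the log2 fold change of 0.43 ± 0.12 fell just short of the threshold (edgeR adjusted p = 0.0582).

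Arpc3A and Arpc3B are the pair that encodes Arpc3. Arpc3A (FBgn0038369; 3R, 15834648 to 15836021, plus strand) was called in none of the 3 infestation comparisons. Its libraries measured 81.8, 76.8 and 95.3 CPM in normal against 95.5, 78.9 and 84.8 CPM in infested lymph glands. For blood at 96 h, they measured 123 and 106 CPM against 105, 147 and 106 CPM, and in 120 h blood 124 and 135 CPM against 127, 161 and 141 CPM. The groups overlapped each time, with log2 fold changes of 0.05 ± 0.17, 0.07 ± 0.19 and 0.15 ± 0.18 (edgeR adjusted p = 0.97, 0.901 and 0.63). Arpc3B (FBgn0065032; X, 17104571 to 17105852, minus strand) rose in 120 h blood, from 291 and 296 CPM to 359, 518 and 483 CPM, by 0.63 ± 0.19 in log2 terms (edgeR adjusted p = 0.0286). It measured 310.2 and 220.1 CPM against 334, 374 and 413 CPM in 96 h blood, and 210.4, 228 and 197 CPM against 279, 334 and 276 CPM in the lymph gland. The groups did not overlap, but the log2 fold changes of 0.50 ± 0.19 and 0.48 ± 0.17 did not pass (edgeR adjusted p = 0.169 and 0.137).

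How the pair was divided was also read within each library, where scaling between libraries plays no part. Arpc3B held 71.4% ± 3.74 (SD, n = 3) of the Arpc3A and Arpc3B reads in normal lymph glands and 77.3% ± 3.27 (n = 3) in infested ones. The shares were 69.5% ± 2.94 (n = 2) and 75.8% ± 3.89 (n = 3) in 96 h blood, and 69.4% ± 1.01 (n = 2) and 75.9% ± 1.77 (n = 3) in 120 h blood. The 4 comparisons made at 96 h had too few libraries for an exact permutation test to pass a threshold of 0.05, whatever the values. Infestation gave an exact two-sided permutation p of 0.2 in the lymph gland (0.1 is the smallest possible) and of 0.2 in blood (which is the smallest possible), and the tissues gave p = 0.6 in normal and 0.7 in infested larvae. Adjusted over the 4 they were 0.4, 0.4, 0.7 and 0.7. The 120 h groups, at 68.6 to 70.1% and 73.9 to 77.4%, did not overlap and were not tested. The pair had 157 to 1029 reads a library: infested lymph gland replicate 2, with 157, stood at 80.9% with a 95% Wilson interval of 74.0 to 86.3%, and 120 h infested blood replicate 2, with 1029, at 76.3% with one of 73.6 to 78.8%. Among reads of all 8 genes, Arpc3A went from 7.72% ± 0.57 to 5.02% ± 0.47 in 120 h blood, and Arp3 from 10.8% ± 0.29 to 16.9% ± 2.59.

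**Figure D2:**
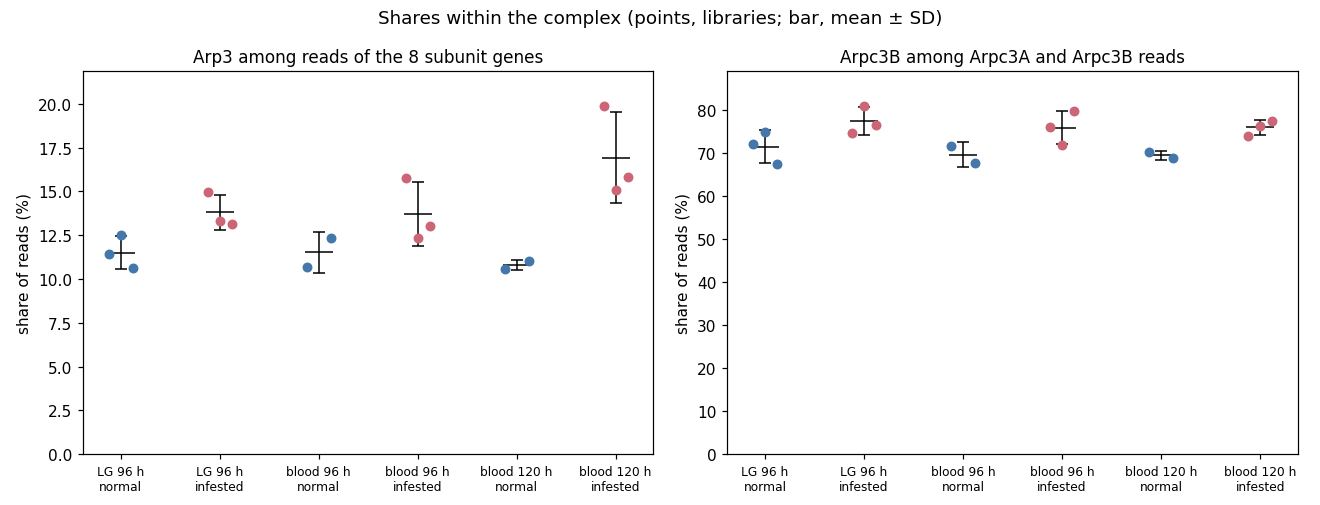
Shares of reads in percent, from 0, by nanopore group (LG, lymph gland); points are libraries, blue normal and red infested, and the bar is the mean ± SD. On the left, Arp3 makes up 10.6 to 11.01% of the reads of the 8 genes in normal 120 h blood and 15.1 to 19.9% in infested 120 h blood; on the right, Arpc3B makes up 67.4 to 80.9% of the reads of the Arpc3 pair across all 16 libraries.

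Arpc5 (FBgn0031437; 2L, 2580292 to 2581423, plus strand), the smallest subunit in other species, passed the threshold in 120 h blood alone of the 3 comparisons. It measured 245 and 182 CPM in normal and 359, 385 and 290.5 CPM in infested 120 h blood, a log2 fold change of 0.68 ± 0.16 (edgeR adjusted p = 0.00823). At 96 h in blood, it was 201 and 191 CPM against 244, 281 and 265.5 CPM, with a log2 fold change of 0.43 ± 0.17 (edgeR adjusted p = 0.178). Within the lymph gland, it was 152, 137 and 143 CPM against 176, 176 and 155 CPM, with a log2 fold change of 0.23 ± 0.15 (edgeR adjusted p = 0.482). Arpc5 overlaps Drp1 on the other strand, so reads may have been mixed here too.

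**Figure D3:**
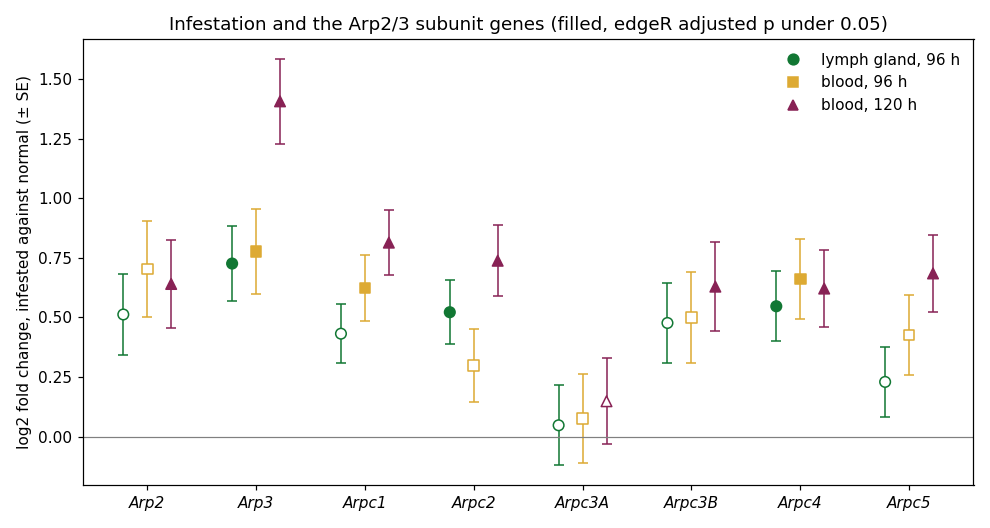
Log2 fold change of infested against normal libraries, with its SE, for the 8 subunit genes in lymph gland at 96 h, blood at 96 h and blood at 120 h; filled symbols passed edgeR's adjusted threshold of 0.05. Arp3 in 120 h blood stands highest at 1.41, and Arpc3A lies between 0.05 and 0.15 in all 3 comparisons.

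Whether infestation acted differently on the complex between tissues or ages was tested as an interaction. No member was called in either test. Between blood and lymph gland at 96 h the differences of log2 fold change ranged from -0.22 to 0.20, with the lowest edgeR adjusted p at 0.894, 0 genes of 8 at an unadjusted p under 0.05 and 0 by DESeq2. Over all genes edgeR called 0.283% (0.24% higher and 0.0424% lower), 20 genes, and DESeq2 70 genes. Between 120 h and 96 h blood they ranged from -0.06 to 0.63, and DESeq2 called 0 (1.99% of all genes called by edgeR, 0.904% higher and 1.09% lower). There 1 of 8 had an unadjusted p under 0.05: Arp3, whose response was larger at 120 h by 0.63 ± 0.25 in log2 terms (edgeR adjusted p = 0.23). The larger number of members called at 120 h is therefore not shown to be a larger effect.

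Age was compared within normal and within infested blood. These comparisons use the same libraries as the infestation comparisons and are not independent of them. In infested blood 4 of 8 rose from 96 h to 120 h (Arp2, Arp3, Arpc1 and Arpc2) and none fell, where 15.1% of all genes rose, 9.33% fell and 24.4% changed. Arp3 rose from 272 ± 36 to 481 ± 69.8 CPM (n = 3 each), by 0.82 ± 0.15 in log2 terms (edgeR adjusted p = 0.00118). Arpc1 rose from 350.4 ± 23.3 to 559 ± 63.6 CPM, by 0.67 ± 0.12 (edgeR adjusted p = 0.000973). Arp2 and Arpc2 rose by 0.65 and 0.61 on the log2 scale. For Arpc3A, Arpc3B, Arpc4 and Arpc5 the log2 fold changes of 0.25 to 0.39 did not pass. The median of the 8 was 0.50 against 0.07 over all genes tested. With blood replicates 2 and 3 summed, 1 of 8 was called, again Arp3.

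In normal blood no member was called between 96 h and 120 h by edgeR or by DESeq2, where 4.23% of all genes were called by edgeR (2.2% higher and 2.02% lower). At an unadjusted edgeR p under 0.05 there were 3 of 8, and no share of all genes at that unadjusted level is given here. All 8 log2 fold changes were above 0, from 0.13 to 0.71, with a median of 0.19 against 0.09 over all genes. Arp2 came nearest, from 77.4 ± 7.3 to 128 ± 12.1 CPM (n = 2 each, log2 fold change 0.71 ± 0.22, edgeR adjusted p = 0.0856). Arpc1 followed, from 227 ± 9.88 to 318 ± 3.98 CPM (log2 fold change 0.48 ± 0.15, edgeR adjusted p = 0.0953). Arp3, with the strongest response to infestation, differed by 0.19 ± 0.19 (edgeR adjusted p = 0.686).

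Blood was also set against lymph gland at 96 h. In infested larvae 3 of 8 were higher in blood (Arpc1, Arpc4 and Arpc5) and none lower, where 7.77% of all genes were higher in blood, 3.29% lower and 11.1% differed. Arpc5 stood at 169 ± 11.8 CPM in lymph glands and 263 ± 18.7 CPM in blood (n = 3 each), a log2 difference of 0.64 ± 0.15 (edgeR adjusted p = 0.00918). Arpc4 and Arpc1 were higher by 0.53 and 0.50 on the log2 scale. Arp2 and Arpc2, at 0.09 and 0.03, overlapped between the tissues. The count was 1 with blood replicates 2 and 3 summed (Arpc5), 1 with no filter on low counts, and 1 without infested lymph gland replicate 3 or infested blood replicate 2. The median of the 8 was 0.41 against 0.00 over all genes. In normal larvae no member was called by edgeR or DESeq2, where 7.52% of all genes were called by edgeR (4.8% higher and 2.71% lower). At an unadjusted edgeR p under 0.05 there were 4 of 8, and no share of all genes at that unadjusted level is given here. The log2 differences ranged from -0.10 for Arp2 to 0.45 for Arpc5, with a median of 0.32 against 0.00 over all genes. Libraries of the 2 tissues differ in preparation as well as in cells, and these cannot be told apart.

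Genes that act on the complex were counted by list. Of the 5 WAVE complex genes, whose products activate Arp2/3 at the leading edge, 4 rose in 120 h blood: SCAR by 0.62 ± 0.20, Cyfip by 1.304 ± 0.25, Abi by 1.16 ± 0.33 and HSPC300 by 0.64 ± 0.17 on the log2 scale. Their edgeR adjusted p-values were 0.0394, 0.00183, 0.0219 and 0.0135. Hem, the other member, did not pass, and the list's median was 0.64. For blood at 96 h, 1 of the 5 rose, HSPC300, from 148 to 275 CPM (log2 fold change 0.90 ± 0.17, edgeR adjusted p = 0.00637). Within the lymph gland, 1 rose, Cyfip, from 24.1 to 42.8 CPM (log2 fold change 0.84 ± 0.23, edgeR adjusted p = 0.0487). None fell. Of all genes tested, 11.4% rose in 120 h blood, 3.31% in 96 h blood and 3.29% in the lymph gland. These shares also stand beside the counts of the lists that follow.

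Among the WASP and WASH genes, 7 of 8 were tested and FAM21 was not. Whamy, a WASP family member, rose in all 3 comparisons from near absence. In normal libraries it had 1 read in all of the lymph gland group, 2 reads in 96 h blood and 1 read in 120 h blood. Infested lymph glands measured 19.0, 7.89 and 13.4 CPM, infested 96 h blood 38.0, 33.0 and 27.6 CPM, and infested 120 h blood 94.3, 100.3 and 114.8 CPM. The ratio of reads per depth was 55.1 in the lymph gland (exact 95% counting interval 9.47 to 2215), 21.4 in 96 h blood (5.80 to 179) and 263 in 120 h blood (46.9 to 10427), with edgeR adjusted p-values of 0.00024, 0.00102 and 6.09e-07. Vrp1, the fly verprolin, which partners WASp, rose in blood at both ages, from 0 and 9.17 CPM to 46.6, 37.1 and 36.3 CPM at 96 h and from 9.97 and 15.02 CPM to 77.5, 86.5 and 95.3 CPM at 120 h (edgeR adjusted p = 0.00353 and 7.7e-05). The other 5 tested, WASp itself and the WASH complex genes wash, CCDC53, SWIP and Strump, were not called in any infestation comparison.

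Of the 4 branch regulators, 3 rose in 120 h blood: Cortactin, which stabilises branches, by 0.56 ± 0.18, GMF, which takes branches apart, by 0.71 ± 0.23, and the coronin pod1 by 2.15 ± 0.22 in log2 terms (edgeR adjusted p = 0.0403, 0.0464 and 6.6e-06). The other coronin, coro, was not called. Of all genes tested, 11.4% rose in 120 h blood. At 96 h in blood, pod1 alone of the 4 passed (1.17 ± 0.26, edgeR adjusted p = 0.0164), and in the lymph gland 0 passed edgeR. There 1 had an unadjusted p under 0.05, and no share of all genes at that level is given here.

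Linear nucleators, which build unbranched filaments without Arp2/3, were counted for contrast, with 5 of 7 tested (Fhos and form3 were not). The formins Frl and capu rose in 120 h blood, by 1.66 ± 0.20 and 2.02 ± 0.25 in log2 terms (edgeR adjusted p = 3.5e-05 and 3.33e-05), capu also in 96 h blood (1.20 ± 0.28, edgeR adjusted p = 0.0235) and Frl also in the lymph gland (0.81 ± 0.18, edgeR adjusted p = 0.0168). Of all genes tested, 11.4% rose in 120 h blood, 3.31% in 96 h blood and 3.29% in the lymph gland. The other actin-related proteins share the fold of Arp2 and Arp3 but, except for the germline protein Arp53D, belong to dynactin or chromatin complexes. Of the 7 other actin-related proteins 6 were tested, and edgeR called 0 in all 3 infestation comparisons. At an unadjusted p under 0.05 there were 0, 0 and 1 in the lymph gland, 96 h blood and 120 h blood. Again no share of all genes at that level is given. At 120 h the median log2 fold changes of the tested genes of the other lists were 0.64 (WAVE), 0.09 (WASP and WASH), 0.63 (branch regulators) and 0.95 (linear nucleators).

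**Figure D4:**
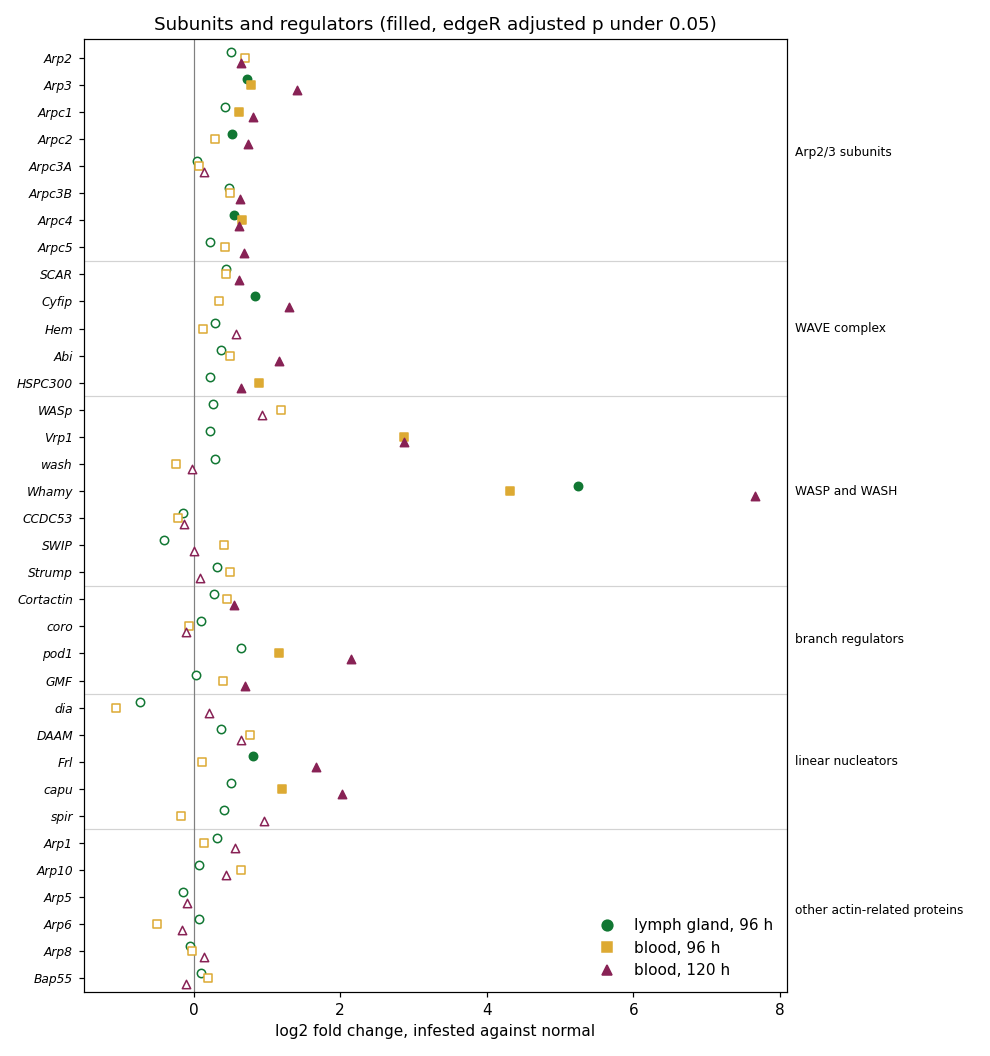
Log2 fold change of infested against normal nanopore libraries (horizontal axis) for the subunit genes and 5 lists of regulators and relatives, in lymph gland at 96 h, blood at 96 h and blood at 120 h; filled symbols passed edgeR's adjusted threshold of 0.05. The fitted values of Whamy, 4.32 to 7.66, rest on 1 or 2 reads in the normal groups, Arp5 in 96 h blood is not drawn because its normal group had no reads, and none of the other actin-related proteins is filled.

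Outside the infestation comparisons, 10 of the 27 tested genes of these lists rose from 96 h to 120 h in infested blood and none fell, where 15.1% of all genes rose: SCAR, Cyfip, Abi, Vrp1, Whamy, Cortactin, pod1, Frl, capu and spir, with log2 fold changes from 0.63 (SCAR) to 1.67 (spir). In normal blood edgeR called 0 of them over that interval, where 4.23% of all genes were called. At an unadjusted p under 0.05 there were 5, and no share of all genes at that level is given here. Between tissues of normal larvae, 1 of the 27 was lower in blood and 1 higher, where 2.71% of all genes were lower, 4.8% higher and 7.52% called. Vrp1 was lower (log2 difference -2.25 ± 0.54, edgeR adjusted p = 0.0173) and Frl was higher (0.99 ± 0.21, edgeR adjusted p = 0.00675). The Vrp1 value rests on 7 reads in all of the 96 h normal blood group. In infested larvae 5 of the 27 were higher in blood (SCAR, HSPC300, Whamy, Cortactin and GMF) and none lower, where 7.77% of all genes were higher. In infested lymph glands Vrp1 measured 21.4, 42.1 and 33.9 CPM, so the gap seen in normal larvae did not pass the test there.

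The subunits tracked each other across the 16 libraries to different degrees. Pearson's r of log2 CPM with the mean of the other 7 was 0.98 for Arpc1, 0.96 for Arpc4, 0.94 for Arp3, 0.93 for Arpc2 and for Arpc5, 0.87 for Arpc3B and for Arp2, and 0.72 for Arpc3A. These are descriptions only, since the 16 libraries fall into 6 groups and share the infestation contrast. Of 3860 other genes with a mean of at least 20 CPM, the 10 most like the mean of the 8 were Rop (0.98), parvin (0.98), sigmar (0.98), CG13117 (0.98), Myo31DF (0.98), tsr (0.97), Pak3 (0.97), Act5C (0.97), twf (0.97) and AnxB9 (0.97). Rop is a syntaxin-binding protein of vesicle fusion, parvin an integrin adaptor, Myo31DF a class I myosin, tsr (twinstar) the fly cofilin, Pak3 a PAK family kinase, Act5C a cytoplasmic actin, twf twinfilin and AnxB9 an annexin. Among the regulators with a mean of at least 20 CPM, r ran from 0.79 to 0.93 for the 5 WAVE complex genes, from 0.21 to 0.92 for the 4 branch regulators, and from -0.25 to 0.86 for 4 other actin-related proteins. The range of r was 0.81 to 0.92 for the 8 lamellocyte markers, -0.52 to 0.54 for the 8 plasmatocyte markers and -0.59 to -0.16 for 4 crystal cell markers.

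Levels of different genes were compared per length in the Illumina libraries, as the authors' TPM (transcripts scaled to a total of 1000000), with 1 library per condition and no replicate check. Arpc1 was highest and Arpc3B second in all 5 libraries, and Arpc3A was lowest in all 5. In 96 h normal blood Arpc1 stood at 248 TPM, Arpc3B at 208, Arpc2 at 171, Arpc5 at 150.1, Arp3 at 121, Arpc4 at 114, Arp2 at 109 and Arpc3A at 72.6 TPM. In 120 h infested blood Arp3, at 344 TPM, came after Arpc1 at 602 and Arpc3B at 382 TPM. The spread from the highest to the lowest subunit was 3.41-fold to 5.56-fold in 4 libraries and 7.73-fold in 120 h normal blood. Arpc3B exceeded Arpc3A by 2.86-fold to 3.53-fold in those 4 libraries, which puts it at 74.1 to 77.9% of the pair, and by 7.23-fold in 120 h normal blood.

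**Figure D5:**
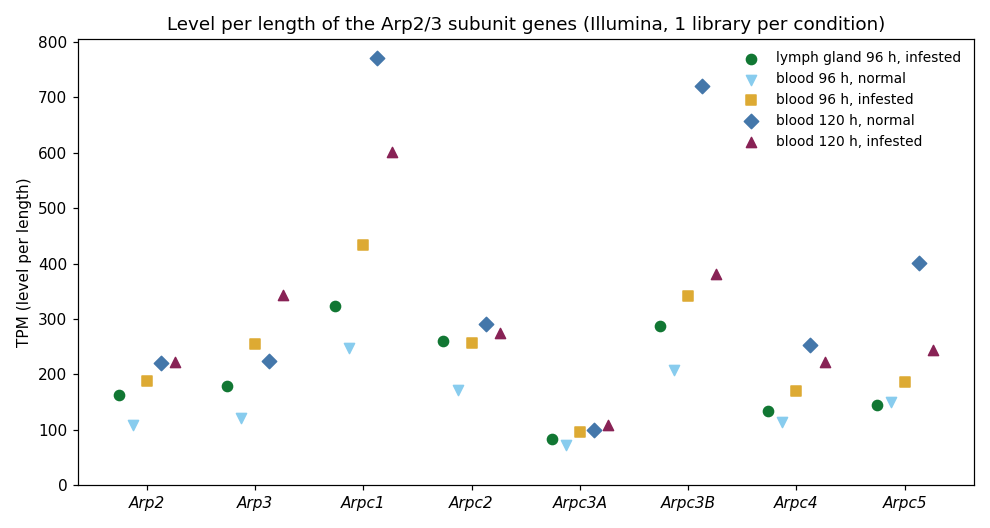
TPM, a level per length, on the vertical axis from 0 for each subunit gene in the 5 Illumina libraries, 1 symbol per library and no replicates. Arpc1 is highest and Arpc3A lowest in every library, and Arpc1 and Arpc3B in 120 h normal blood (770.4 and 720.1 TPM) stand above all other points.

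The Illumina library labelled 120 h normal blood stood apart. It held 90.1 TPM of the plasmatocyte gene Hml, against 757 to 2136 TPM in the other 4, but the 8 plasmatocyte markers together summed to 3682 TPM, within the range of the others (2331 to 13621 TPM). Its male germline markers summed to 676 TPM against 3.31 to 149.6 TPM. Across genes its log2 levels correlated with those of the 6 nanopore groups at r = 0.446 to 0.630, and at 0.619 with the group of its own label. The other 4 Illumina libraries had r = 0.711 to 0.789 with theirs. Among these, 96 h normal blood had a slightly higher r with normal lymph glands (0.731) than with its own group (0.719). The 96 h infestation ratios below use that library. In the 120 h normal blood library the 8 lamellocyte markers summed to 2071 TPM, while atilla alone was at 22.5 TPM. The marker sum was 376 TPM in 96 h normal blood and 3313 to 14796 TPM in the 3 infested libraries. Arp2/3 subunits summed to 2980 TPM in 120 h normal blood and 1194 TPM in 96 h normal blood. They summed to 1931 TPM in 96 h infested blood, 2400 in 120 h infested blood and 1574 in the infested lymph gland. Each Illumina ratio that uses the 120 h normal blood library is therefore given with that limit.

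As log2((CPM + 5) ratio), called past 1.5-fold where the higher of both libraries reached 20 CPM, 4 of 8 members were higher and none lower in infested 96 h blood, where 12.1% of genes were higher, 4.21% lower and 16.3% called. They were Arp3 (0.99), Arpc1 (0.77), Arp2 (0.70) and Arpc3B (0.69), and all 8 ratios were above 0 with a median of 0.62 against 0.10 over all genes. This was the same direction as in the nanopore libraries. At 120 h, infested against the library that stood apart, Arp3 was higher (0.61), Arpc3B (-1.10) and Arpc5 (-0.84) were lower and only 1 of 8 was above 0, where 15.7% of genes were higher, 32.9% lower and 48.6% called. That goes against the nanopore comparison, in which all 8 fold changes were above 0. Between 120 h and 96 h normal blood, again with that library, 7 of 8 were higher, where 38.9% of genes were higher, 15.5% lower and 54.4% called. The comparisons of age in infested blood and of tissue in infested larvae, which do not use it, called 0 of 8 each. In infested blood, 120 h against 96 h, all 8 ratios lay above 0, from 0.13 to 0.50, with 17.5% of genes called (9.89% higher and 7.64% lower). Between infested blood and infested lymph gland at 96 h they ran from -0.16 to 0.35, with 19.9% called (9.26% higher and 10.6% lower).

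The normal lymph gland at 120 h was a single library of 6223590 counts from the other kit, scaled to its own total, so no comparison with the rest was tested. It held 44.03 CPM of Arp2, 88.1 of Arp3, 154 of Arpc1, 102 of Arpc2, 88.4 of Arpc3A, 203 of Arpc3B, 137 of Arpc4 and 176 of Arpc5. Their sum was 993 CPM. The sums of 1062 to 1154 CPM in the 3 normal lymph glands at 96 h were TMM-scaled and this one was not. The values are therefore not on the same scale, and no difference in level can be read from them. Arpc3B made up 69.7% of the Arpc3 pair (95% Wilson interval 67.5 to 71.8%).

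Isoforms were described from the transcript tables, with no test. For Arpc1 the annotation has a pair of transcripts with the same coding length of 1131 bases that share both ends. FBtr0080570 has 2 exons and a 5' untranslated region of 323 bases, and FBtr0080569 has 3 exons and 257 bases there. FBtr0080570 held 70.0% ± 3.64 of the gene's transcript counts in normal and 76.1% ± 3.3 in infested lymph glands, 69.0% ± 2.59 and 74.6% ± 1.67 in 96 h blood, and 68.8% ± 3.69 and 78.2% ± 4.87 in 120 h blood (SD, n = 2 or 3). In both blood comparisons the infested and normal libraries did not overlap, and in the lymph gland they did. How often isoform shares of other genes fail to overlap is not given here. For gene levels, groups did not overlap for 38.6% of genes in 96 h blood and 49.8% in 120 h blood. Lack of overlap in blood, for Arpc1 or for Arpc3B below, is therefore no evidence of a shift with infestation. In the Illumina libraries it held 78.0 to 83.7%, and 81.9% and 81.7% in normal and infested 96 h blood. Arp3 was carried mainly by FBtr0076737, with the longer 3' untranslated region of 552 bases, at 89.4 to 94.4% of counts as group means. FBtr0334087, with 154 bases there, held the rest, and it held 38.5% in the Illumina library that stood apart against 0 to 14.8% in the other 4. Arpc3B was carried mainly by FBtr0074410, with 522 coding bases, at 80.9 to 94.7% of counts as group means and 90.8 to 99.7% in the Illumina libraries. FBtr0334462, with 471 coding bases, held 3.83 to 10.5% as group means and 0.15 to 8.37% in the Illumina libraries. In 120 h blood FBtr0074410 held 83.8 to 91.1% in normal and 78.7 to 83.2% in infested libraries, with no overlap. In 96 h blood and in the lymph gland the groups overlapped. Arpc4 has 1 transcript. For Arp2, Arpc2, Arpc3A and Arpc5 the 2 platforms assigned reads to different isoforms: FBtr0346418 held 100% of Arpc2 counts in every nanopore group and 0.49 to 2.66% in the Illumina libraries, and FBtr0300570 held 46.4 to 49.7% of Arpc3A counts against 81.7 to 89.8%. The pair of Arpc2 transcripts differs only in 33 bases at the start, and between 22.3 and 27.8% of nanopore reads were ambiguous between transcripts, so no shift of these isoforms is reported.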

How the data were processed

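RNA of blood and lymph glands was measured in 17 nanopore and 5 Illumina libraries. Per the file headers and values, for each nanopore library the authors deposited counts (whole reads) for genes and estimated counts for transcripts, and expected counts, TPM and isoform percent of the gene's total for each Illumina library. FPKM was not used. The submitters' processing notes name minimap2 2.17-r941, RSEM 1.3.1, FastQC 0.11.8, StringTie 2.1.3 and STAR 2.5.3a, with no role. Neither the genome build nor the strand setting of nanopore counting is given in the sources used here. Ambiguous reads (0.498 to 1.29% of gene counts) and reads outside genes (0.379 to 0.777%) were left out of library sizes. Gene symbols came from the Ensembl BDGP6.54 annotation, with 17663 of 17714 FlyBase identifiers matched. Sequences of the members are not shown.

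Deposited gene counts of the 16 SQK-PCB109 libraries were fitted in edgeR 4.0.16 (R 4.3.3) with 6 groups and no covariate: TMM scaling, filterByExpr (minimum count 10, minimum total 15), quasi-likelihood F test, Benjamini-Hochberg adjustment over 7076 genes of 13721 with a count, threshold 0.05, 10 residual degrees of freedom, common dispersion 0.0508. The procedure was tested on simulated data. A list's "rose" and "fell" are calls of this test. Shares of all genes are for adjusted calls, and counts at an unadjusted p under 0.05 have no such share beside them. CPM are TMM-scaled, and log2 CPM for likeness used a prior count of 2. Read shares were compared by exact permutation tests. Illumina expected counts were scaled to CPM, 5 CPM were added before ratios, and no test was made. The deposited isoform percent was used as it stands; isoforms with at least 10% of a member's counts in a group mean were described.

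All 8 members are named, as are regulators past the threshold and the 10 genes most like the members' mean. The members, the 5 regulator and relative lists and the marker lists (lamellocyte, plasmatocyte, crystal cell, prohemocyte, midgut, muscle, fat body, male germline) were chosen with earlier results of these data known. A further list of regulators is not reported here. Alternatives were RLE scaling, DESeq2 1.42.0, no filter on low counts, a replicate block, summed blood replicates 2 and 3, a fit of only the libraries compared, each library left out, and 1 CPM added to Illumina values.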

Additional observations from a re-analysis of the deposited data

Results flagged for a closer look

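A formin of the linear nucleator list, Frl, changed with infestation differently at the 2 ages of blood, by a test of the difference itself. At 96 h in blood, it measured 123 and 114 CPM in normal and 155, 122 and 103 CPM in infested libraries, which overlap (log2 fold change 0.11 ± 0.20). In 120 h blood it measured 79.8 and 84.1 CPM in normal and 265, 256 and 256 CPM in infested libraries, which do not (1.66 ± 0.20). The difference of the log2 fold changes was 1.56 ± 0.28 (edgeR adjusted p = 0.0119), in a test that called 1.99% of all genes. With blood replicates 2 and 3 summed it called 0 genes, so Frl did not pass there. No subunit gene of the complex met that test, and Frl was 1 of 27 regulators and relatives tested.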

How the results depend on the processing

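Members called under other settings were compared with 3 (lymph gland infestation), 3 (96 h blood infestation), 7 (120 h blood infestation), 0 (age, normal blood), 4 (age, infested blood), 0 (tissue, normal) and 3 (tissue, infested). RLE scaling and DESeq2 kept every count within 1.5 times. With no filter on low counts the counts were 1 in the lymph gland, 1 in 96 h blood and 1 for tissue in infested larvae. With blood replicates 2 and 3 summed they were 0 in the lymph gland, 0 in 96 h blood, 1 in 120 h blood, 1 for age in infested blood and 1 for tissue in infested larvae, with fewer samples in the fit. With only the libraries compared they were 0 in the lymph gland and 2 for age in normal blood. The cause was not tested.

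The main fit did not pair samples by replicate number. Same-numbered samples deviated together with r = 0.03 to 0.13 in the lymph gland and -0.03 to 0.29 in blood. Samples with different numbers had r = -0.14 to 0.02 in the lymph gland and -0.22 to 0.09 in blood. The mean r for same against different numbers was 0.10 against -0.05 in the lymph gland and 0.06 against -0.03 in blood. Same-numbered samples were thus somewhat more alike, and whether they share a batch was not tested. With a replicate block within tissue, 5 members were called in the lymph gland, 1 for age in normal blood and 1 for tissue in infested larvae. The block also reversed Arp2 (0.0431) and Arpc2 (-0.00656) for tissue in normal larvae and Arpc2 (-0.198) for tissue in infested larvae, none of them called.

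Leaving out 1 library at a time gave 0 to 4 members called in the lymph gland, 0 to 4 in 96 h blood, 3 to 7 in 120 h blood, 3 to 5 for age in infested blood, 1 to 3 for tissue in infested larvae, and 0 in the other comparisons. The lymph gland count was 0 without normal replicate 3 or infested replicate 1, and 1 without normal replicate 2 or any 1 of the 4 normal blood libraries. For 96 h blood it was 0 without either normal library and 1 without infested replicate 1 or 2, in 120 h blood 3 without either normal library, and for tissue in infested larvae 1 without infested lymph gland replicate 3 or infested blood replicate 2. Uncalled values changed sign in the ranges -0.0383 to 0.14 (Arpc3A, lymph gland infestation), -0.11 to 0.19 (Arpc3A, 96 h blood infestation), -0.0655 to 0.41 and -0.10 to 0.33 (Arpc3B and Arpc5, age in normal blood) and -0.05004 to 0.22 and -0.0422 to 0.11 (Arp2 and Arpc2, tissue in infested larvae). The tissue difference in the Arpc3B share ran from -3.93 to 0.22 percentage points in normal and from -3.37 to 0.52 in infested larvae.

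Calls over all genes also moved. They were 363, 352, 1375, 299, 1730, 532 and 783 in the 7 comparisons in the order above, 636, 744, 660, 2706 and 893 without the filter (lymph gland, 96 h blood, age in normal and infested blood, tissue in normal larvae) and 200, 71, 437, 26, 799, 214 and 430 with summed replicates. With the block they were 660 (lymph gland), 529 (age, normal) and 315 (tissue, normal), and with only the libraries compared 222 (lymph gland) and 711 (age, normal). The interactions, 20 between tissues and 141 between ages, went to 183 and 488 without the filter, 1 and 0 with summed replicates and 74 and 278 with the block, and the first to 70 with DESeq2 and 10 with only the libraries compared. Adding 1 CPM to Illumina values kept every count within 1.5 times.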
